A study of Homo sapiens with 6 samples.

Results

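The regulators of G-protein signalling (RGS) are a family of proteins that switch off signalling by heterotrimeric G proteins, and 7 of their genes were followed here through knock-down of TAZ in OCI-AML2 cells, a human cell line that grew out of an acute myeloid leukaemia. The 7 genes are RGS1, RGS2, RGS10, RGS14, RGS16, RGS18 and RGS19, out of 13002 genes listed with a value in every library. They were chosen by gene symbol from those with RPKM values in both deposited tables, so their levels are described and support nothing by themselves. The tables hold 10 genes of the RGS family, and the other 3 stood lower: RGS12 at 0.743 to 1.35 RPKM, RGS5 at 0.351 to 0.553 RPKM and RGS3 at 0.274 to 0.515 RPKM, while the lowest value of any of the 7 was 2.91 RPKM (RGS16 in shRNA2 B). RPKM is a read number scaled by the length of the gene and by the depth of the library.

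The groups were TAZ shRNA1, TAZ shRNA2 and a control hairpin, with 2 libraries each, lettered A and B. All 3 groups carried a lentiviral hairpin and went through 3 days of puromycin (2.0 µg/mL), so the control cells share the infection and the drug. The product of TAZ is tafazzin, which remodels cardiolipin in mitochondria. The labels describe the control hairpin as a scramble, whereas the control columns of the tables are named GFP. One cell line was used, and the labels do not say whether A and B were separate cultures, so the p-values rest on a spread between libraries that may be technical only.

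A G-protein-coupled receptor that binds its ligand makes the alpha subunit of a G protein exchange GDP for GTP, and alpha and beta-gamma subunits then signal apart. RGS proteins bind the GTP-loaded alpha subunit and speed up its GTP hydrolysis, which shortens the signal. In blood cells they are best known for limiting chemokine-driven migration. RGS1, RGS2, RGS16 and RGS18 belong to the R4 subfamily of small proteins made of little more than the RGS domain, RGS10 and RGS14 are classed with RGS12, and RGS19 is a member of the RZ subfamily, whose amino end carries a string of cysteines.

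Each library held 18817306 (control A) to 20972292 (shRNA1 B) reads in listed genes, recovered from the steps of the RPKM values. TAZ itself stood at 4.02 and 4.10 RPKM with shRNA1, 1.47 and 2.13 RPKM with shRNA2, and 11.3 and 11.9 RPKM with the control hairpin. All 11 myeloid markers on the list were found, 10 of them at 1 RPKM or more in every library, and their summed level was 5240 to 5839 RPKM with shRNA1, 3915 to 4703 RPKM with shRNA2 and 1034 to 1208 RPKM in the control, most of it lysozyme (LYZ). In bulk RNA, fewer cells of a type and less RNA per cell cannot be told apart.

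The promoters of the 3 genes with the widest changes with shRNA1 are shown first, since RGS18 rose there while RGS16 and RGS1 fell. Each run is the 250 bases before the gene's start, 5′ to 3′ on the gene's strand, from RefSeq on build GRCh38.p14, and capitals mark the single motif found.
RGS18: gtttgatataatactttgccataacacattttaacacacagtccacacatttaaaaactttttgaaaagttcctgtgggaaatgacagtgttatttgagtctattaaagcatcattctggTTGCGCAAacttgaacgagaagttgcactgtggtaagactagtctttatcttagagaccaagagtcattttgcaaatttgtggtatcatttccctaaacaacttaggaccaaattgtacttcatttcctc
RGS16: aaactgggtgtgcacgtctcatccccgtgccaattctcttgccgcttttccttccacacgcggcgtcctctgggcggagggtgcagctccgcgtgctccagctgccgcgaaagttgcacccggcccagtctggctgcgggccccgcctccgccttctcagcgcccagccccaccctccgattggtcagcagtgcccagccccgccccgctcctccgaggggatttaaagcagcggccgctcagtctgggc
RGS1: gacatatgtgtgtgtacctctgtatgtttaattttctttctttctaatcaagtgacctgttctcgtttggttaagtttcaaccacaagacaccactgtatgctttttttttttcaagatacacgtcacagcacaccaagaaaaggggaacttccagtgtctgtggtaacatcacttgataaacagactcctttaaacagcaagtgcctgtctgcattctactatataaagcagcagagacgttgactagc
These lie at chr1:192158212-192158461 (RGS18, plus strand), chr1:182604390-182604639 (RGS16, minus strand) and chr1:192575523-192575772 (RGS1, plus strand). Guanine and cytosine made up 34.8% of the RGS18 window and 39.2% of the RGS1 window, against 68.4% of the RGS16 window and a median of 58.0% over 35116 promoters.

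All 7 promoters were searched on both strands for 6 motifs: AP-1 (TGANTCA), CRE (TGACGTCA), a PU.1-type ETS site (GAGGAAGT), C/EBP (TTGCGCAA), NF-kappaB and E-box (CACGTG). RGS18 held the C/EBP letters 130 to 123 bases before the start, a match found in 0.131% of all promoters of the same length. RGS19 held the PU.1-type letters 49 to 42 bases before its start, found in 2.17% of promoters. The windows of the other 5 genes held none of the 6 as spelled here. Looser forms of these sites were not searched, so such a window may still hold one. The RGS1 window has gggaacttcc, which is close to the NF-kappaB letters searched and was no match. The remaining motifs occurred in 6.57% (AP-1), 1.65% (CRE), 0.527% (NF-kappaB) and 6.34% (E-box) of promoters. A match is a run of letters and says nothing of binding in these cells.

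Chromosome 1 carries 4 of the 7 genes. In the RefSeq order of protein-coding genes, RGS18, RGS21, RGS1, RGS13 and RGS2 follow each other, and RGS16 lies elsewhere on the chromosome next to RGS8. RGS10 is on chromosome 10, RGS14 on chromosome 5 and RGS19 on chromosome 20. RGS21, RGS13 and RGS8 were not analysed here. Of the genes in that run, RGS18 lay above both control libraries with shRNA1, RGS1 lay below both and RGS2 overlapped them. With shRNA2, RGS18 lay above both, and RGS1 and RGS2 overlapped them. Of all genes tested with shRNA1, 33.5% lay above both control libraries and 32.5% below both, and 31% lay above both with shRNA2.

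**Figure D1:**
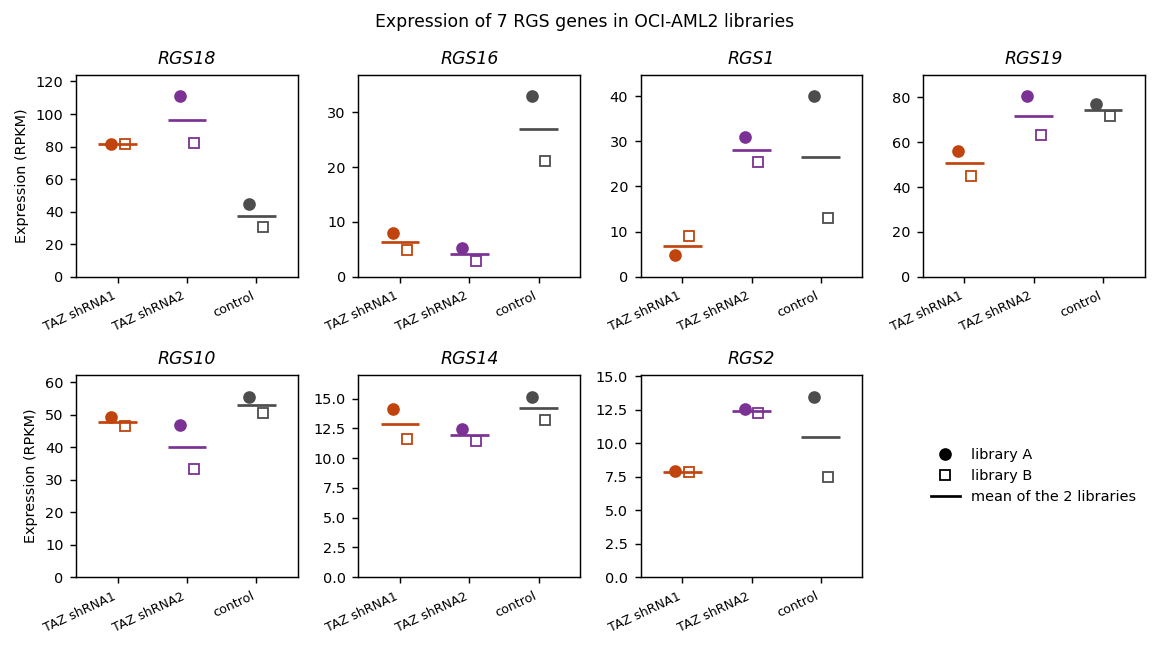
Expression of the 7 RGS genes in each library (RPKM, linear axis from 0), with filled circles for library A, open squares for library B and a bar at the mean of the 2. Both hairpins lie above the control for RGS18 and below it for RGS16, while RGS1 is below both control libraries with shRNA1 and those libraries stand at 40.0 and 12.9 RPKM.

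Each hairpin was compared with the control to ask which RGS transcripts differ when TAZ is lowered. A gene was called when its limma adjusted p, over all genes tested, was under 0.05. With shRNA1, 1 of the 7 genes was called higher and 3 lower, where 9.99% of all 10613 genes tested were called higher and 8.58% lower. With shRNA2, 1 was called higher and 1 lower, where 8.12% of 10659 genes were called higher and 7.61% lower. The median log2 fold change of the 7 was -0.34 with shRNA1 and -0.06 with shRNA2, and that of all genes tested was close to 0 (-0.0005 and -0.0045). All 7 passed the filter of a mean of 1 RPKM in each comparison. Both comparisons use the same control libraries, so their values are set side by side and not counted as separate support for each other.

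RGS18, which is expressed in myeloid cells, megakaryocytes and platelets and acts on Gi and Gq alpha subunits, rose with both hairpins. It stood at 81.7 and 81.6 RPKM with shRNA1, at 110.9 and 82.2 RPKM with shRNA2, and at 44.8 and 30.4 RPKM in the control, A before B in each pair. All 4 knock-down libraries lay above both control libraries; of all genes tested, 33.5% did so with shRNA1 and 31% with shRNA2. The values come from 3616 and 3696 reads with shRNA1, 4626 and 3541 with shRNA2, and 1721 and 1320 in the control. The mean was 81.7 ± 0.0733 RPKM with shRNA1 and 96.5 ± 20.4 RPKM with shRNA2, against 37.6 ± 10.2 RPKM in the control (SD, n = 2 each), which is 2.17-fold and 2.57-fold higher. The log2 fold change was 1.14 (SE 0.18, limma adjusted p = 0.00928) with shRNA1 and 1.36 (SE 0.23, limma adjusted p = 0.0107) with shRNA2. The call held under each of 16 other settings in both comparisons, with values of 0.86 to 1.41 and 1.08 to 1.64.

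Markers of cells that also use RGS18 were read beside it. LYZ makes up most of the myeloid sum given above (786 of 1208 RPKM in control A), and the list did not move one way. Of its 11 genes, 6 had all 4 knock-down libraries above both control libraries, ITGAM among them by only 0.579 against 0.577 RPKM. MPO had all 4 below (5.16 and 4.63 RPKM with shRNA1, 1.02 and 1.49 RPKM with shRNA2, against 11.2 and 10.1 RPKM in the control), and 4, among them SPI1 and CEBPA, overlapped the control. Among all genes tested, 33.5% lay above both control libraries with shRNA1 and 31% with shRNA2, and 32.5% and 31.1% lay below. The share with all 4 libraries on one side was not computed. Of 6 megakaryocyte and platelet markers, ITGA2B, GP9 and GP1BA were listed, and their summed level was 1.82 to 2.22 RPKM with shRNA1, 3.73 to 4.62 RPKM with shRNA2 and 4.82 to 6.16 RPKM in the control. GP9 made up most of that sum and lay below the control in all 4 knock-down libraries, GP1BA was at 0 in both control libraries and at 0.0597 to 0.265 RPKM in the knock-down libraries, and ITGA2B stayed at or under 0.171 RPKM in every library. The part of these cell types in the rise of RGS18 was not tested.

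RGS16, an R4 member that is induced by activation and restrains Gi- and Gq-linked receptors, fell with both hairpins and moved furthest of the 7. It stood at 7.96 and 4.89 RPKM with shRNA1, at 5.31 and 2.91 RPKM with shRNA2, and at 32.9 and 21.0 RPKM in the control. The 4 knock-down libraries all lay below both control libraries; of all genes tested, 32.5% did so with shRNA1 and 31.1% with shRNA2. Reads numbered 399 and 251 with shRNA1, 251 and 142 with shRNA2, and 1433 and 1037 in the control. The mean was 6.42 ± 2.17 RPKM with shRNA1 and 4.11 ± 1.70 RPKM with shRNA2, against 27.0 ± 8.42 RPKM in the control (SD, n = 2 each), or 4.20-fold and 6.57-fold lower. The log2 fold change was -1.99 (SE 0.27, limma adjusted p = 0.00543) with shRNA1 and -2.59 (SE 0.29, limma adjusted p = 0.00328) with shRNA2. By size, regardless of sign, it ranked 36th of 10613 genes with shRNA1 and 12th of 10659 with shRNA2. Under the same 16 settings the call held in both comparisons, at -2.32 to -1.67 and -2.98 to -2.21.

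RGS1, an R4 member best known as an activation-induced brake on chemokine receptors in lymphocytes, fell with shRNA1 and was not called with shRNA2. It stood at 4.87 and 8.92 RPKM with shRNA1, at 30.8 and 25.4 RPKM with shRNA2, and at 40.0 and 12.9 RPKM in the control. The shRNA1 libraries lay below both control libraries, as 32.5% of all genes tested did, while both shRNA2 libraries lay between the 2 control values. Control A was 3.09 times control B, the widest gap between A and B among the 7 genes in any group, and the reads behind the 2 values were 1003 and 368. Exact 95% Poisson intervals of 942 to 1067 and 331 to 408 reads, which cover counting error only, do not meet.

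With shRNA1 the mean of RGS1 was 6.89 ± 2.86 RPKM, against 26.4 ± 19.1 RPKM in the control (SD, n = 2 each), and its log2 fold change was -1.71 (SE 0.48, 95% interval -2.84 to -0.58, limma adjusted p = 0.0483). The call sat at the threshold: it was lost without shRNA1 A (-1.31, adjusted p = 0.0630), with no filter on low values (0.0626), with the gene length trend removed (0.0684) and with robust variance estimation (0.202). Without control A the value was -0.92 (adjusted p = 0.00113), and without control B it was -2.51 (adjusted p = 1.12e-07). Against the same control, shRNA2 had a mean of 28.1 ± 3.87 RPKM and a log2 fold change of 0.29 (SE 0.43, 95% interval -0.72 to 1.30, limma adjusted p = 0.678). That value was 1.08 and called without control A (adjusted p = 0.00105), and -0.51 and not called without control B (0.0985). Markers of lymphocytes, which also use RGS1, were read beside it. Of the 6 T-cell markers CD3D and CD4 were listed, with a sum of 18.6 to 21.0 RPKM with shRNA1, 13.5 to 14.05 RPKM with shRNA2 and 9.22 to 10.1 RPKM in the control, and the sum is nearly all CD4, which myeloid cells also use. CD3D went the other way, at 0.131 and 0 RPKM with shRNA1, 0.0694 and 0.269 RPKM with shRNA2 and 0.981 and 0.732 RPKM in the control. Of the 5 B-cell markers the 4 listed summed to 4.40 to 5.00, 1.31 to 1.60 and 1.88 to 3.46 RPKM in the same groups, and each of the 4 overlapped between knock-down and control libraries. Their part in the RGS1 values was not tested.

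RGS19, also called GAIP, which acts on Gi-class alpha subunits and binds the scaffold GIPC, fell with shRNA1 and was not called with shRNA2. It stood at 56.0 and 45.1 RPKM with shRNA1, at 80.5 and 63.1 RPKM with shRNA2, and at 77.1 and 71.8 RPKM in the control. Both shRNA1 libraries lay below the control, as for 32.5% of all genes tested, and the shRNA2 libraries lay on either side of it. The log2 fold change was -0.56 (SE 0.14, limma adjusted p = 0.0327) with shRNA1 and -0.06 (SE 0.17, 95% interval -0.45 to 0.33, limma adjusted p = 0.827) with shRNA2. The shRNA1 call was lost without shRNA1 B (-0.41, adjusted p = 0.332) and with the gene length trend removed (-0.39, adjusted p = 0.0505).

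RGS10, the small Gi-directed member studied for its restraint of activation in microglia and macrophages, was called with neither hairpin. It stood at 49.1 and 46.6 RPKM with shRNA1, at 46.9 and 33.2 RPKM with shRNA2, and at 55.6 and 50.6 RPKM in the control. All 4 knock-down libraries lay below both control libraries, with shRNA2 B the furthest away. Such an order is common: taken 1 hairpin at a time, 32.5% of all genes tested showed it for shRNA1 and 31.1% for shRNA2. The log2 fold change was -0.15 (95% interval -0.42 to 0.12, limma adjusted p = 0.389) with shRNA1 and -0.42 (95% interval -0.86 to 0.02, limma adjusted p = 0.165) with shRNA2. With shRNA2 it became called without shRNA2 A (-0.67, adjusted p = 0.0496).

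RGS14, a scaffold that joins an RGS domain with Ras-binding domains and a GoLoco motif for Gi alpha subunits, was called with neither hairpin. It stood at 14.1 and 11.6 RPKM with shRNA1, at 12.4 and 11.4 RPKM with shRNA2, and at 15.2 and 13.2 RPKM in the control. The shRNA2 libraries lay below both controls, as for 31.1% of all genes tested, and the shRNA1 libraries overlapped them. Its log2 fold change was -0.14 (95% interval -0.48 to 0.20, limma adjusted p = 0.512) with shRNA1 and -0.24 (95% interval -0.58 to 0.10, limma adjusted p = 0.295) with shRNA2.

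RGS2, the R4 member with a preference for Gq alpha subunits, was called with neither hairpin. It stood at 7.94 and 7.83 RPKM with shRNA1, at 12.5 and 12.3 RPKM with shRNA2, and at 13.5 and 7.49 RPKM in the control. The 2 libraries of each hairpin lay close together, while control A was 1.80 times control B and the control range covered all 4 knock-down values. The log2 fold change was -0.34 (95% interval -0.91 to 0.24, limma adjusted p = 0.356) with shRNA1 and 0.29 (95% interval -0.29 to 0.86, limma adjusted p = 0.452) with shRNA2. The choice of control library set both results: without control B the shRNA1 value was -0.74 and called (adjusted p = 0.000457), without control A it was 0.07, and without control A the shRNA2 value was 0.69 and called (adjusted p = 0.02002).

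**Figure D2:**
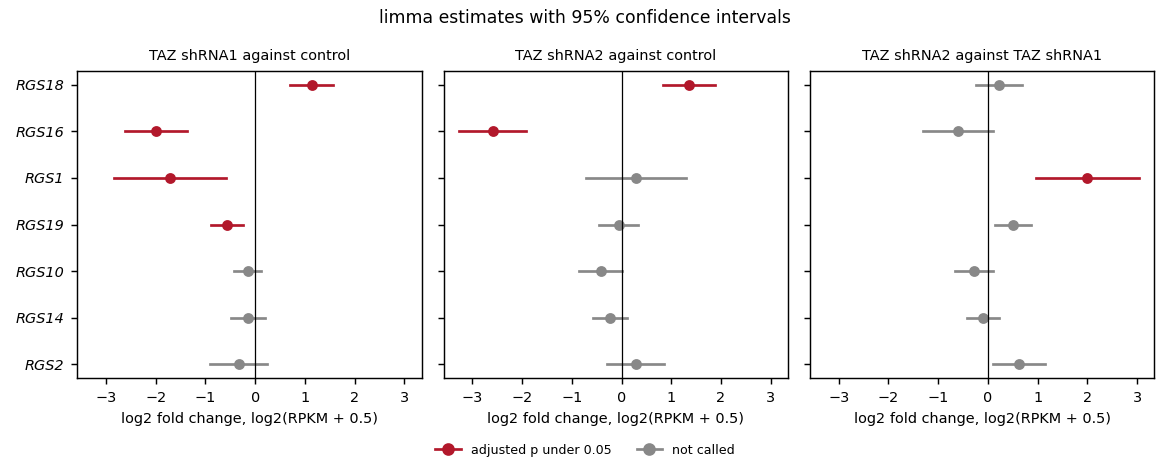
limma log2 fold changes of the 7 genes on the log2(RPKM + 0.5) scale with 95% confidence intervals, for shRNA1 against control, shRNA2 against control and shRNA2 against shRNA1, red where the adjusted p was under 0.05. RGS16 and RGS18 are red with both hairpins, on opposite sides of 0, and RGS1 is red with shRNA1 and between the hairpins.

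The hairpins were also compared with each other, in one fit of all 6 libraries, to ask whether the 7 genes differed between them. RGS1 was called higher with shRNA2 and the other 6 were not called, where 4.78% of all 10660 genes tested were called higher and 6.1% lower. RGS1 averaged 28.1 ± 3.87 RPKM with shRNA2 and 6.89 ± 2.86 RPKM with shRNA1 (SD, n = 2 each), a 4.08-fold difference. Its log2 fold change was 2.00 (SE 0.45, 95% interval 0.97 to 3.03, limma adjusted p = 0.0274), the 27th widest of the 10660 genes. The call was lost when any one of the 4 hairpin libraries was left out (adjusted p = 0.0756 to 0.189) and with robust variance estimation (0.133), while both shRNA2 libraries remained above both shRNA1 libraries. RGS2, RGS18 and RGS19 also had both shRNA2 libraries above both shRNA1 libraries, without being called; 27.4% of all genes tested had this order and 31.2% the opposite one. Their log2 fold changes were 0.62 (95% interval 0.10 to 1.14, limma adjusted p = 0.123) for RGS2, 0.22 (95% interval -0.24 to 0.69, limma adjusted p = 0.539) for RGS18 and 0.50 (95% interval 0.13 to 0.87, limma adjusted p = 0.0873) for RGS19. RGS19 became called under 5 of 17 other settings, limma-voom among them (0.54, adjusted p = 0.0443). RGS2 became called under 3 of 17, among them without control A (adjusted p = 0.00884) or control B (0.00866), which enter this fit through the shared spread. RGS16 differed by -0.60 (95% interval -1.31 to 0.11, limma adjusted p = 0.264) and was called under 1 of 17 other settings.

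Per length, the order of the 7 genes differed between the groups. RGS18 had the highest level in all 4 knock-down libraries, whereas RGS19 and RGS10 were the highest 2 in both control libraries. In the control, RGS18, RGS16 and RGS1 overlapped one another, and RGS1 also overlapped RGS14 and RGS2, which overlapped each other. With shRNA1, RGS19 and RGS10 overlapped below RGS18, and RGS16, RGS1 and RGS2 overlapped at the low end. With shRNA2, RGS16 was the lowest in both libraries and RGS1 lay above RGS2 and RGS14, which overlapped. RGS18 made up 36.9% and 39.5% of the summed RPKM of the 7 genes in shRNA1 A and B, 37.0% and 35.7% in shRNA2 A and B, and 16.1% and 14.6% in control A and B. RGS16 made up 3.59% and 2.37%, 1.77% and 1.26%, and 11.8% and 10.1% of it in the same libraries. The sum itself was 221.7 and 206.6 RPKM with shRNA1, 299.5 and 230.5 RPKM with shRNA2, and 279.1 and 207.4 RPKM in the control, and the groups overlapped.

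**Figure D3:**
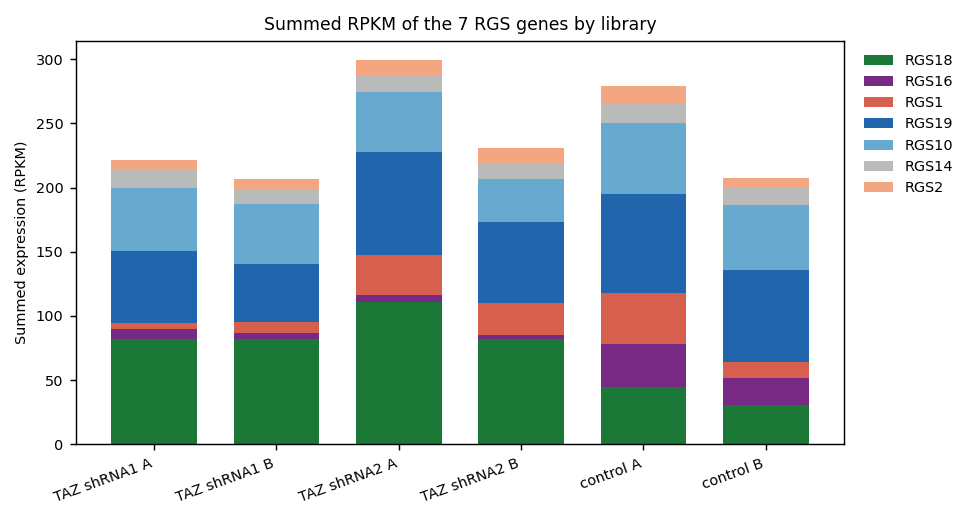
Summed RPKM of the 7 RGS genes in each library, stacked by gene, with RGS18 at the bottom and RGS16 above it. RGS18 fills over 35% of each knock-down bar and under 17% of each control bar, while the heights of the bars overlap between groups.

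Libraries A and B of a group differed in one direction for most of the 7 genes. A was above B for 6 genes with shRNA1 (RGS1 was the exception), for 7 with shRNA2 and for 7 in the control. Over all genes, 53.4%, 54.1% and 48.3% were higher in A in the same groups. RGS18 and RGS16 lay apart from the control within each letter, which follows from the order of all their libraries given above. RGS18 in A was 81.7 and 110.9 RPKM with the hairpins and 44.8 RPKM in the control. In B it was 81.6 and 82.2 RPKM with the hairpins and 30.4 RPKM in the control.

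For each of the 7 genes, the 2 genes with the closest profile over the 6 libraries were found among 10660 genes, by the root mean square difference of log2(RPKM + 0.5) values centred on their own mean. RGS18 lay nearest to ACPP, a prostatic acid phosphatase (0.10), and HIST1H2AC, a histone H2A gene (0.11). RGS16 lay nearest to PRR7 (0.22) and to MZB1, a chaperone of the B-cell lineage (0.31). RGS1 had no close profile: its nearest were BCL2A1, an anti-apoptotic BCL2 relative, at 0.34, and LSP1, a leukocyte actin-binding protein, at 0.36. The flatter genes had closer matches, between 0.03 and 0.07: POC1A and PAM16 for RGS10, CTNNBL1 and NAP1L4 for RGS14, ALKBH5 for RGS19, and LOC150381 and VEGFB for RGS2. Reads of HIST1H2AC can be shared with near-identical paralogs, so its level is uncertain.

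The rest of the pathway was read from lists of its parts, whose counts stand against 9.99% of all genes tested called higher and 8.58% lower with shRNA1, and 8.12% higher and 7.61% lower with shRNA2. RGS12, the only other RGS gene past the filter, had a log2 fold change of 0.38 with shRNA1 and 0.31 with shRNA2 (limma adjusted p = 0.169 and 0.374). Of 11 tested proteins with RGS-like domains, 2 rose and 1 fell with shRNA1, and 2 rose with shRNA2; the 1 of 11 that fell is close to the share of all genes. AKAP10, an anchoring protein of protein kinase A, rose with shRNA2 (0.62, limma adjusted p = 0.0289) and stood at 0.44 with shRNA1 (0.0674). Of 9 partners and modulators, NUCB1, a calcium-binding protein that also binds Gi alpha subunits, fell with shRNA1 (-0.51, limma adjusted p = 0.0247), and GPSM2 and GPSM3, which hold Gi alpha subunits in the GDP form, rose with shRNA2 (0.62 and 0.59).

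The alpha subunits on which RGS proteins act showed small differences. Of 8 tested, GNAQ fell with shRNA1 (-0.47, limma adjusted p = 0.0405) and was not called by limma-voom. With shRNA2, 0 of 8 were called by limma, 0 had an unadjusted p under 0.05, and 0 were called by limma-voom. GNAI2, the main Gi alpha subunit of leukocytes, had log2 fold changes of 0.12 and 0.14, and GNAS, the Gs alpha subunit, of -0.15 and -0.16, with shRNA1 and shRNA2. The list of beta and gamma subunits also holds GNB1L, which is named as beta-subunit-like and is not counted as a subunit here. Of its 9 tested genes, 1 fell with shRNA1 (GNG11, -0.56, not called by limma-voom). With shRNA2, 2 fell: the subunit gene GNB4 (-0.62) and GNB1L (-0.93).

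Receptors that signal through Gi showed the widest log2 fold changes among the lists. Of 11 tested with shRNA1, 6 rose and 1 fell, with a median of 1.14. Of 15 tested with shRNA2, 8 rose and 1 fell, with a median of 0.67. Of all genes tested, 9.99% and 8.12% were called higher with shRNA1 and shRNA2, and 8.58% and 7.61% lower. CCRL2, FPR1, LTB4R2 and SUCNR1 passed the filter of 1 RPKM with shRNA2 and not with shRNA1. FPR1, called higher, passed it only through its shRNA2 libraries (2.44 and 2.61 RPKM, control 0.815 and 0.684). The shRNA2 count and median include it. The myeloid chemokine receptors CCR2 (2.43 and 1.82) and CXCR2 (1.60 and 1.48) and the platelet-activating factor receptor PTAFR (1.85 and 2.77) rose with both hairpins. PTAFR gave the widest value with shRNA2, but its control libraries stood near the filter and apart, at 1.49 and 0.537 RPKM. The size of its change is therefore uncertain. The members that fell were FPR2, a formyl peptide receptor, with shRNA1 (-1.53, limma adjusted p = 0.0062) and CXCR4, the receptor for CXCL12, with shRNA2 (-0.75, limma adjusted p = 0.0346). Both were named after their values were seen, and FPR2 rose with shRNA2 (0.67, limma adjusted p = 0.0395). CXCR4 stood at 140.2 and 141.0 RPKM with shRNA1, at 41.6 and 34.2 RPKM with shRNA2, and at 72.9 and 55.7 RPKM in the control, so the hairpins lay on opposite sides of it. Of the Gs- and Gq-coupled receptors, 4 of 14 rose and 1 fell with shRNA1, and 2 of 13 rose and 1 fell with shRNA2, with LPAR6, a lysophosphatidic acid receptor on that list, rising by 0.84 and 1.63.

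Downstream, 6 of 17 tested genes of the cAMP branch rose and 1 fell with shRNA1, and 3 rose with shRNA2, beside the 9.99% and 8.12% of all genes tested that were called higher. PDE4B, a cAMP phosphodiesterase, rose by 1.19 and 0.94, and PRKAR2B, a regulatory subunit of protein kinase A, by 0.59 and 0.60. In the phospholipase C and calcium branch, 6 of 17 rose with shRNA1 and 5 with shRNA2, among them ITPR1, the calcium channel opened by inositol trisphosphate (1.15 and 0.88). Of 5 arrestin and receptor kinase genes, 1 rose and 1 fell with shRNA1 and 2 fell with shRNA2; ARRB2, beta-arrestin 2, fell by 0.45 and 0.65. Of all genes tested, 8.58% and 7.61% were called lower with shRNA1 and shRNA2.

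**Figure D4:**
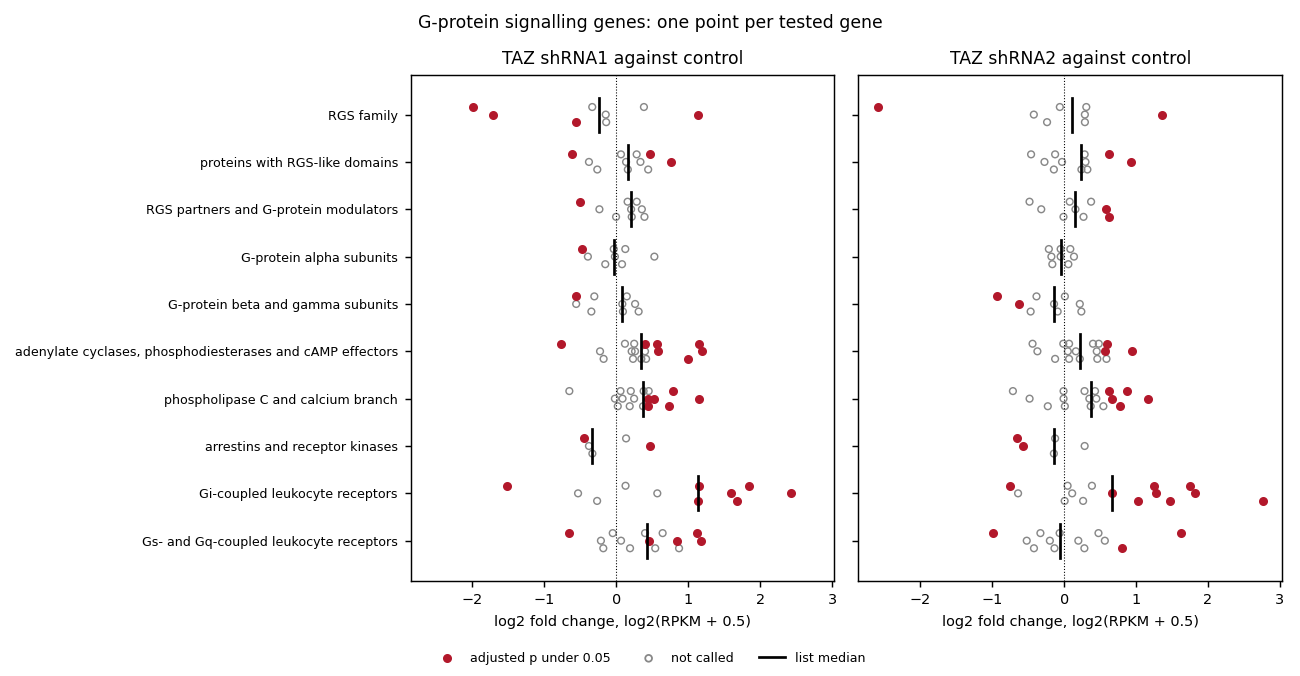
limma log2 fold changes on the log2(RPKM + 0.5) scale of the tested genes of 10 G-protein signalling lists, for shRNA1 and for shRNA2 against the control, red where the adjusted p was under 0.05 and with a bar at each list's median. The RGS list reaches to -1.99 and -2.59 (RGS16), and the Gi-coupled receptor list has the highest median in both panels, 1.14 and 0.67.

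The authors' deposited table gives the same signs for the called genes. It lists log2 fold changes of 1.15 and 1.37 for RGS18 and of -2.08 and -2.73 for RGS16 with shRNA1 and shRNA2. The authors' deposited table has RGS1 at -1.80 with shRNA1 and 0.17 with shRNA2, and RGS19 at -0.57 and -0.05. At an FDR under 0.05 the authors' deposited table calls 4 of the 7 genes with shRNA1, where it calls 35.9% of all genes, and 3 with shRNA2, where it calls 38.8%. The third with shRNA2 is RGS10, at -0.41 with an FDR of 0.00846 in the authors' deposited table.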

How the data were processed

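RNA sequencing of total RNA gave 6 libraries in 3 groups of 2. Per the submitters' processing notes, the build was hg19 and the tools were DESeq 1.18.0, edgeR 3.8.6, HTSeq 0.6.1p2, TopHat2 2.0.11 and Trim Galore 0.4.0, with no role stated. The strand setting of the counting is not given in the sources used here, so reads of a gene and an antisense partner cannot be told apart. The authors deposited, per the file headers, a table for each hairpin with the RPKM of its libraries, a log2 fold change, a log2 average CPM, a likelihood-ratio score and p-values with adjusted p-values. Control values were identical in the 2 tables. Of 13004 listed genes, 21 had symbols turned into dates and were named again by gene ID, and 2 exact repeats were dropped.

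Values were transformed to log2(RPKM + 0.5), which understates changes of low genes. Genes averaging 1 RPKM or more over the fitted libraries were tested with limma 3.58.1 (R 4.3.3, two-sided, variance trend, Benjamini-Hochberg over all genes), each hairpin with the control in a fit of 4 libraries and the hairpins with each other in a fit of 6. Whole reads were recovered from RPKM for 97.3% of genes (within 0.02 reads of a whole number). Promoters are from RefSeq on GRCh38.p14, another build than hg19, and no coordinates of the files were used. Named genes are the 7 RGS genes, other RGS genes, TAZ, up to 4 genes per pathway list (those whose larger adjusted p of the hairpin comparisons was smallest), and the 2 nearest profiles of each RGS gene. CXCR4, FPR2 and GNAQ fall outside that rule, and some genes under it and 1 list are not reported here. The RGS genes and lists were chosen with earlier results of these data known, so their calls are no independent support for a change of the family.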

Additional observations from a re-analysis of the deposited data

Results flagged for a closer look

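Among the genes named here, those whose response differed between the hairpins by the test of shRNA2 against shRNA1 itself (limma, adjusted over all 10660 genes tested) deserve a second look. RGS1 was higher with shRNA2 by 2.00 on the log2 scale (adjusted p = 0.0274). Both shRNA2 libraries lay above both shRNA1 libraries, as for 27.4% of all genes tested. The RGS1 call was lost when any one hairpin library was left out and with robust variance estimation (limma adjusted p = 0.133). TAZ was lower with shRNA2 by -1.001 (adjusted p = 0.00801), so the hairpins also differ in the remaining target transcript.

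Of the other G-protein signalling genes, NUCB1 differed by 0.88 (adjusted p = 0.00304), LPAR6 by 0.78 (0.0149), GNAQ by 0.56 (0.0230) and FPR2 by 2.19 (0.00102), all higher with shRNA2. Those lower with shRNA2 were CXCR4 at -1.88 (adjusted p = 0.000905), F2R, a thrombin receptor, at -1.45 (0.000905), PRKCB, a protein kinase C, at -1.27 (0.00122), GNB4 at -0.93 (0.0053) and ROCK2, a serine/threonine kinase, at -0.62 (0.0414).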

How the results depend on the processing

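The settings tried changed the pseudocount, the filter on low values, the scaling, the variance estimation, the fitted libraries, the replicate block and the gene length trend, used limma-voom on recovered reads, or left out each library; scaling to the reads in listed genes was added after seeing the data. edgeR and DESeq2 on recovered reads were planned and not run, and limma-voom was run on those reads. Leaving out a library leaves 1 in its group, which is then assumed to vary like the others. Over 343 recomputed fold changes of the 7 RGS genes, 310 kept their direction and side of the threshold, 14 became called, 11 lost a call and 8 changed sign. RGS16 and RGS18 kept their calls with both hairpins in all of them.

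With shRNA1, 1971 genes were called, 3780 with the letter as a replicate block and 461 to 4397 without one library; of the RGS genes 4 were called, 2 with the gene length trend removed. With shRNA2, 1676 genes were called, 2584 in one fit of all 6 libraries, 4170 with the replicate block, 2515 with the length trend removed and 823 to 2010 without one library; 2 RGS genes were called, and 2 to 4 without one library (4 without control A). Between hairpins, 1160 genes were called, 2396 with the block, 1801 with the length trend removed and 155 to 1622 without one library. There 1 RGS gene was called, 4 with the block, 2 with quantile normalization, the length trend removed, limma-voom or scaling to listed reads, 0 with robust limma (3 at an unadjusted p under 0.05) and 0 to 2 without one library (0 without any one hairpin library, with 2 or 3 at an unadjusted p under 0.05). The causes were not tested.

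Signs changed for RGS10 with shRNA1 (0.13, length trend removed) and for RGS19 with shRNA2 (0.048 with quantile normalization, 0.073 with the length trend removed, -0.24 to 0.11 without one library). Without one library, RGS2 ranged from -0.74 to 0.069 with shRNA1 and -0.12 to 0.69 with shRNA2, RGS1 from -0.51 to 1.08 with shRNA2, and RGS14 from -0.23 to 0.037 between hairpins.

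The letters A and B give no stated pairing. The A-minus-B differences correlated across 10660 genes at 0.37 (shRNA1 and shRNA2), 0.26 (shRNA1 and control) and 0.42 (shRNA2 and control). With the block RGS10 was called with shRNA2 (adjusted p = 0.0199), and RGS2 (0.0276), RGS16 (0.0038) and RGS19 (0.00911) between hairpins. There RGS19 was also called with quantile normalization (0.0274), the length trend removed (0.0261), limma-voom (0.0443) and scaling to listed reads (0.0357).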
